A study of Homo sapiens with 7 samples.

Results

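Genes that mark the segments of the kidney tubule were examined in ACHN cells, an established human renal cell carcinoma line. The set holds 50 genes, which were chosen by name because they encode transporters and other segment markers of the tubule. They are measured by 67 of the 42405 probes on the array and make up 50 of its 34797 gene names. Of these genes, 28 belong to the proximal tubule, 4 to the loop of Henle, 4 to the distal tubule and 10 to the collecting duct, 2 are subunits of the sodium pump of several segments, and 2 are markers of tubule injury. RNA was profiled on 4 arrays of control cells carrying the empty retroviral vector (EV 1 to EV 4) and on 3 arrays of cells carrying the same vector with HOTAIR, a long non-coding RNA (HOTAIR 1 to HOTAIR 3). Both were selected with hygromycin, and no isolation of clones is described. They are a model of the tubule only as far as a carcinoma line in culture is, without the flow and the neighbouring cells of a nephron. Whether the samples of a group came from separate cultures or transductions is not given in the sources used here, so the p-values measure the spread between these samples only.

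The tubule recovers most of what the glomerulus filters. In the proximal tubule, sodium-coupled carriers of the brush border take up phosphate, glucose and amino acids, organic anion and cation transporters secrete drugs and urate, and the megalin-cubilin receptors retrieve filtered proteins. The thick ascending limb of the loop of Henle reabsorbs salt without water through the cotransporter encoded by SLC12A1, the distal convoluted tubule does so through that encoded by SLC12A3, and the collecting duct adjusts sodium, water and acid through the ENaC channel, the aquaporins and the proton pump. The sodium-coupled transport among these is driven by the sodium pump of the basolateral membrane. Renal cell carcinomas of the common types are thought to arise from the proximal tubule, and loss of these transporters is a known feature of dedifferentiated tubule cells.

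The sequences of some probes bear on the results and are given 5′ to 3′ on the transcript's strand, with positions on hg19 from the array annotation. The first 4 were chosen because whether the groups overlap for SLC3A1 and MME depends on the probe, and the next 2 because the probes of SLC34A3 disagree. The MME probe A_33_P3370094 covers the end of the coding sequence and is printed up to the stop codon, which is in capitals (the first 33 bases of the probe). The last 2 are the probes of GGT1, which overlap over 51 bases, and capitals mark the bases at which they differ there.
SLC3A1 A_33_P3418426 (chr2:44539834-44539893, plus strand): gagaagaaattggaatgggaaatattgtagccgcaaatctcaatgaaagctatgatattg
SLC3A1 A_24_P217234 (chr2:44547688-44547747, plus strand): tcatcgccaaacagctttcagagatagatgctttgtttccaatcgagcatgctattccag
MME A_33_P3290707 (chr3:154802056-154802115, plus strand): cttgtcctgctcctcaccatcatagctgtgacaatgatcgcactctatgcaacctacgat
MME A_33_P3370094 (chr3:154898216-154898275, plus strand): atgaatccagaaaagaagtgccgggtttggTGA
SLC34A3 A_33_P3780983 (chr9:140128101-140128160, plus strand): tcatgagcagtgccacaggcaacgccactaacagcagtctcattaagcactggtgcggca
SLC34A3 A_33_P3297468 (chr9:140129070-140129129, plus strand): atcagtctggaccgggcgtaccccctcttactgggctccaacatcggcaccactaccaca
GGT1 A_23_P154986 (chr22:25023862-25023921, plus strand): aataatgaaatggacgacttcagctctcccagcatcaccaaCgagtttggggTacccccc
GGT1 A_24_P178175 (chr22:18762212-18762271, minus strand): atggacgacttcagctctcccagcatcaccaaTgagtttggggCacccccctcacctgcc
Counted from the 5′ end of A_23_P154986, the GGT1 probes differ by C42T and T53C and share the other 49 bases of the overlap, and the array annotation places them at separate positions of chromosome 22. GGT1 has near-identical copies in the genome, and the signal of each probe may include them.

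Each value below is the log2 of a probe's processed intensity minus the 75th percentile of its array, so that 0 is the level of that percentile and -1 is a signal 2-fold below it. A probe is said to have signal on an array where the software called it well above background there. The label of the overexpression was checked first. The HOTAIR probe had no signal on the EV arrays (-6.29, -6.97, -6.42 and -7.07). It had signal on all HOTAIR arrays (-3.12, -3.24 and -2.58). The log2 difference was 3.71 (adjusted p = 0.00162 in limma, Benjamini-Hochberg over all tested probes). With normexp background correction it was 1.06 (adjusted p = 0.0251 in limma). Against a floor for the EV arrays, the HOTAIR arrays were 9.32-fold higher. The floor was the lowest signal among probes called well above background on each EV array, or the probe's own where that was higher. The highest probes without signal lay between -5.06 and -4.57 on the EV arrays, so this fold depends on the floor chosen. The 75th percentile of the intensity lay between 522.5 and 649.1, 48.72% to 52.15% of the probes had signal, and 0 spots were saturated. EV 2 stood apart from the other EV arrays, and HOTAIR 3 deviated in the same way. On the first principal component, which held 51.8% of the variance, they scored 74 and 21.1 where the other arrays scored from -29.4 to -8.5. The 7 arrays shared 1 slide on which each group filled a row of its own, and therefore group and row cannot be told apart. Of the markers of renal epithelium, 8 of 10 had signal on all arrays, including PAX8, PAX2 and CDH16, and CDH1 and CDH6 had it on none. The array annotation places the probes of KRT8 on chromosomes 8 and 1 and those of KRT18 on chromosomes 4 and Y. The signal counted for KRT8 and KRT18 may therefore not come from these genes alone. Of the markers of podocytes, endothelium, immune cells and fibroblasts, 6 of 24 had signal on all arrays (PODXL, SYNPO, ENG, CD14, CD68 and THY1) and 13 on no array, COL1A1, VWF and CD3E among them.

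The share of genes with signal was lower in the tubule set than over the whole array. Of the 50 genes, 15 (30%) had a probe with signal on all 7 arrays, 6 (12%) on some arrays and 29 (58%) on none. Of all 34797 gene names, 45.2% had such a probe on all arrays, 12.7% on some and 42.1% on none. These shares describe 1 cell line, and a probe without signal gives an upper limit on its signal and does not show that the gene is silent. The RNA came from whole cultures, so that fewer cells with a transcript and less of it per cell cannot be told apart.

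Most of the genes with signal belonged to the proximal tubule, which also makes up most of the set. Signal on no array was found for 50% of its genes, beside 42.1% of all gene names. Signal on all arrays was found for 11 of 28 (39.3%), beside 45.2%. These were SLC34A3, SLC5A2, SLC22A5, SLC4A4, SLC3A1, SLC13A3, SLC17A3, LRP2, AMN, GGT1 and MME. SLC17A1, SLC2A9 and AQP1 had signal on some arrays. The other 14 proximal genes had none on any array. They were the phosphate carrier SLC34A1, the glucose carriers SLC5A1 and SLC2A2, the organic anion transporters SLC22A6 and SLC22A8, the organic cation transporter SLC22A2, the urate exchanger SLC22A12, the sodium-proton exchanger SLC9A3, the amino acid transporter chains SLC7A9, SLC7A7 and SLC7A8, the vitamin B12 and protein receptor CUBN, and the peptidases ANPEP and DPEP1. The values of their 15 probes ran from -7.64 to -5.53, with a median of -7.33.

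Few genes of the later segments had signal. In the loop of Henle, UMOD, which encodes uromodulin, had signal on 3 EV and all HOTAIR arrays, and the salt cotransporter SLC12A1, the potassium channel KCNJ1 and the chloride channel subunit BSND on none. All 4 distal genes were without signal on every array, namely the thiazide-sensitive cotransporter SLC12A3, the calcium-binding protein CALB1, the magnesium channel TRPM6 and the calcium channel TRPV5. The same held for 8 of 10 collecting duct genes, which were the 3 ENaC subunits SCNN1A, SCNN1B and SCNN1G, the water channels AQP2 and AQP3, the vasopressin receptor AVPR2, the anion exchanger pendrin (SLC26A4) and the proton pump subunit ATP6V1B1. The exceptions were ATP6V0A4, a membrane subunit of the proton pump, with signal on all arrays, and the anion exchanger SLC4A1, with signal on 2 EV and 2 HOTAIR arrays. The sodium pump subunits ATP1B1 and FXYD2 and the injury marker HAVCR1 had signal on all arrays, and the injury marker LCN2 on 2 EV arrays and 1 HOTAIR array.

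**Figure D1:**
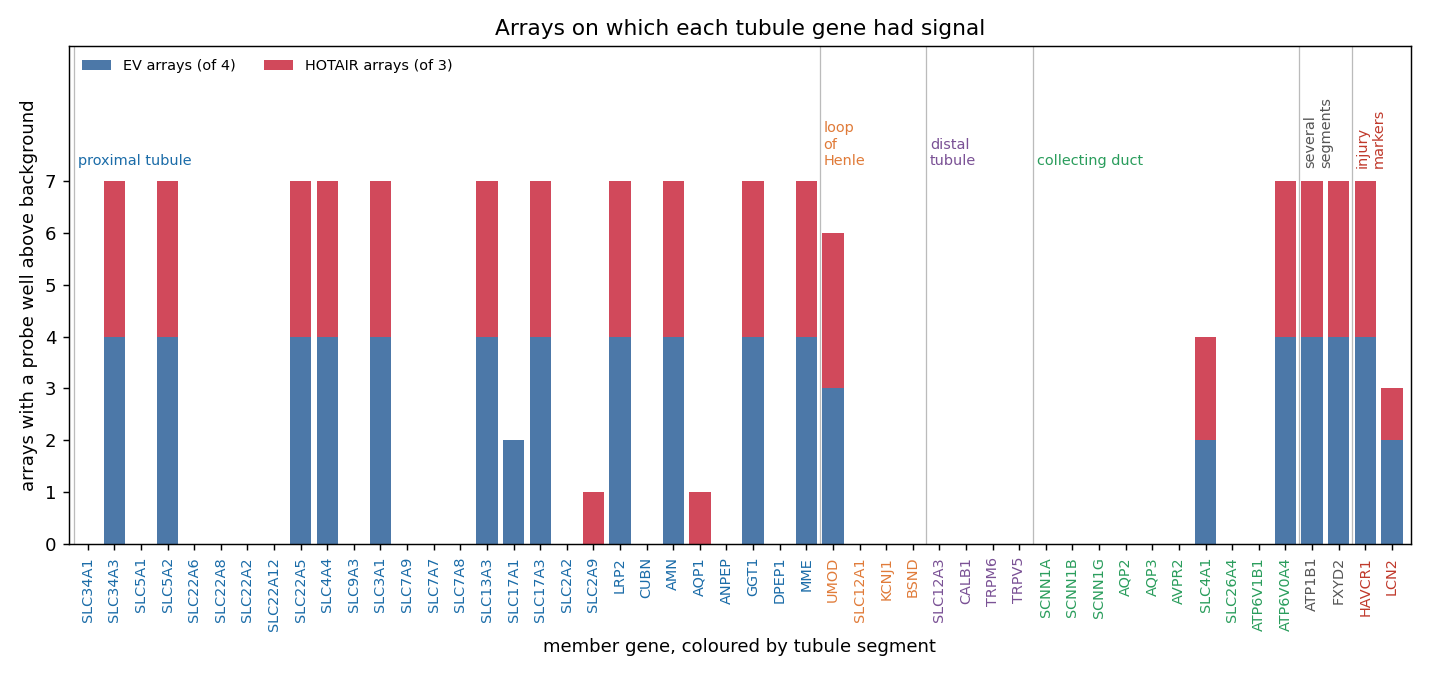
Number of arrays (y axis, of 7) on which at least 1 probe of each of the 50 genes (x axis, coloured by segment) had signal, with EV arrays in blue and HOTAIR arrays in red. Full bars are found for 11 of 28 proximal genes, for ATP6V0A4 in the collecting duct, for ATP1B1 and FXYD2 and for HAVCR1, and the distal tubule is empty.

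The pattern of signal was much the same in both groups. On the EV arrays 15 genes had signal on all 4 arrays and 31 on none, and on the HOTAIR arrays 16 had it on all 3 and 30 on none. The gene that made the difference in the first count was UMOD. With the software's more lenient call (positive and significant against the background), 24 genes in place of 15 had signal on all arrays.

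Of the 50 genes, 16 had a probe with signal on all arrays of a group and entered the comparison of HOTAIR with EV, with 22 probes. By limma, 0 of the 16 genes had an adjusted p under 0.05, beside 0.18% of the 16664 tested gene names. At an unadjusted p under 0.05 there was 1 gene, SLC3A1, beside a background of 6.11%, and the groups did not overlap for 1 gene, also SLC3A1, beside 8.05% (4.43% for higher on the HOTAIR arrays alone). Counted over probes, 2 of 22 had an unadjusted p under 0.05 (background 5.85%) and 2 of 22 separated the groups (background 7.7%, and 4.2% for higher alone), A_24_P217234 of SLC3A1 and A_33_P3370094 of MME, and 0 passed the adjusted threshold (background 0.167%). The differences ran from -0.30 to 0.56, with 9 above 0, 7 below it and 14 of the 16 smaller than 0.5 in size. Their median was 0.09, beside 0.011 over all tested gene names, and it was -0.005 with quantile normalization. The lowest adjusted p was 0.728. An absence of calls does not show equal levels, since the 95% intervals reached as far as 1.46 on the log2 scale.

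**Figure D2:**
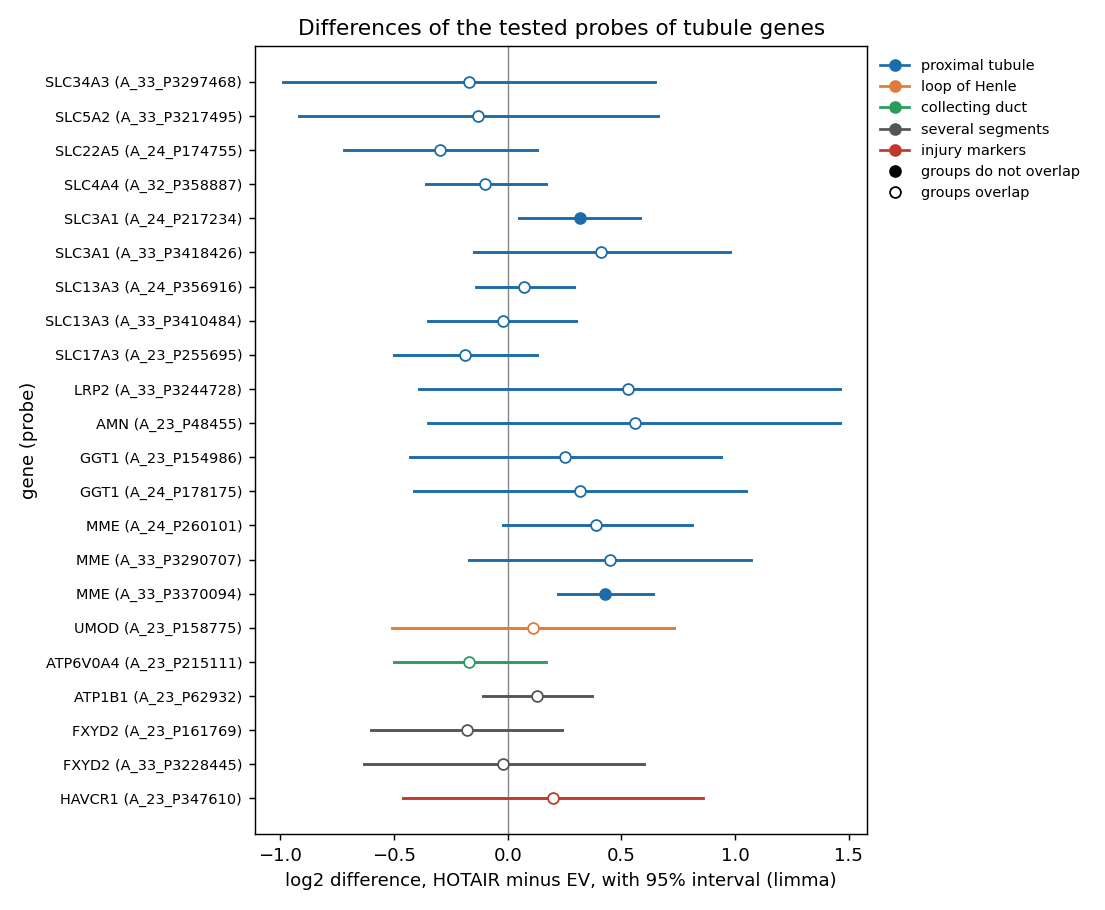
Log2 difference of HOTAIR minus EV (x axis) for each of the 22 tested probes of the tubule genes (y axis), with limma's 95% interval as a line and the segment as its colour. Filled points mark the 2 probes whose groups do not overlap, A_24_P217234 of SLC3A1 at 0.32 and A_33_P3370094 of MME at 0.43, whose intervals do not include 0.

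Among the amino acid transport genes, SLC3A1 had signal. It encodes rBAT, the heavy chain that pairs with the chain of SLC7A9 to take up cystine and basic amino acids, and its loss causes cystinuria. Its brighter probe, A_24_P217234, had 0.21, -0.10, -0.04 and -0.04 on the EV arrays and 0.32, 0.37 and 0.28 on the HOTAIR arrays. Every HOTAIR array thus lay above every EV array, but the gap between HOTAIR 3 and EV 1 was small. The log2 difference was 0.32 (SE 0.11, 95% interval 0.05 to 0.58), a fold of 1.25, with an adjusted p of 0.728 by limma and an exact permutation p of 0.0571 (two-sided). The other probe, A_33_P3418426, which lies nearer the 5′ end, had -1.68, -2.55, -1.93 and -2.59 on the EV arrays and -1.66, -1.72 and -1.94 on the HOTAIR arrays. Its groups overlapped, and its difference was 0.41 (SE 0.24, adjusted p = 0.939 by limma). The difference of SLC3A1 with 1 array left out at a time stayed between 0.28 and 0.38. The partner chain SLC7A9 had no signal on any array and lay between -7.60 and -7.20.

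The brush-border peptidases and transferases were represented by MME and GGT1. MME encodes neprilysin (CD10), a peptidase used as a marker of the proximal tubule and of renal cell carcinoma, and it has 3 tested probes. On A_33_P3370094, at the end of the coding sequence, the EV arrays had -3.15, -3.16, -3.12 and -3.14 and the HOTAIR arrays -2.73, -2.68 and -2.72. The groups were far apart for their spread (SD 0.015, n = 4, and 0.030, n = 3), the narrowest among the 22 probes. The difference was 0.43 (SE 0.091, 95% interval 0.22 to 0.64), a fold of 1.35, with an unadjusted p of 0.00169 and an adjusted p of 0.22 by limma. The exact permutation p was 0.0286, the smallest that 3 arrays against 4 allow.

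The other probes of MME had differences of like size with more spread. A_33_P3290707, near the 5′ end and the brightest, had -2.36, -3.41, -2.56 and -2.88 on the EV arrays and -2.31, -2.07 and -2.67 on the HOTAIR arrays. A_24_P260101, nearest the 3′ end, had -3.09, -3.24, -2.87 and -2.83 on the EV arrays and -2.73, -2.86 and -2.26 on the HOTAIR arrays. The groups overlapped on both, where the differences were 0.45 (SE 0.27, adjusted p = 0.94 by limma) and 0.39 (SE 0.18, adjusted p = 0.888). MME is represented by its brightest probe in the counts by gene. The difference of this probe was 0.25 without EV 2 and 0.61 without HOTAIR 3, and the mean of its 3 probes gave 0.43 (adjusted p = 0.498).

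GGT1 encodes gamma-glutamyltransferase 1, a brush-border enzyme that breaks down glutathione. The brighter probe, A_24_P178175, represents GGT1 in the counts by gene and is annotated to another position of chromosome 22 than A_23_P154986. It had -0.81, -1.44, -0.57 and -0.01 on the EV arrays and -0.17, -0.37 and -0.63 on the HOTAIR arrays. The groups overlapped, EV 2 was the lowest array and EV 4 the highest. The difference of 0.32 (SE 0.31, adjusted p = 0.993 in limma) was 0.08 without EV 2 and 0.55 without EV 4. The other probe gave 0.25 (SE 0.29), with EV 2 at -2.05 and the other EV arrays between -1.11 and -0.99.

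The receptors that retrieve filtered protein had the largest differences in size, and also the widest spread. LRP2 encodes megalin, and its probe (chr2:169983769-169983828, minus strand) had -1.60, -2.45, -1.36 and -0.88 on the EV arrays and -0.56, -0.87 and -1.67 on the HOTAIR arrays. AMN encodes amnionless, which brings cubilin to the membrane, and it had -1.76, -2.93, -1.95 and -1.26 on the EV arrays and -0.97, -1.85 and -1.44 on the HOTAIR arrays. The groups overlapped for both genes, and EV 2 was the lowest array for both. The differences were 0.53 (SE 0.40, adjusted p = 0.983 by limma) for LRP2 and 0.56 (SE 0.39, adjusted p = 0.972) for AMN. Without EV 2 they were 0.24 for each, and with another array left out they reached 0.85 for LRP2 and 0.79 for AMN. Cubilin itself (CUBN) lay between -6.86 and -6.01 and had no signal on any array.

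The carriers of phosphate and glucose were dim. SLC34A3, a sodium-phosphate cotransporter of the brush border, had -3.49, -3.04, -3.78 and -3.44 on the EV arrays and -3.33, -4.49 and -3.01 on the HOTAIR arrays by A_33_P3297468. HOTAIR 2 was the lowest array, the difference was -0.17 (SE 0.35, 95% interval -0.99 to 0.65), and without HOTAIR 2 it was 0.27. The other probe of SLC34A3, upstream on the same transcript, had signal on HOTAIR 1 alone, with -4.25, and lay between -7.56 and -6.92 on the other arrays, so the signal of this gene rests on 1 of its 2 probes. SLC5A2, which encodes the glucose carrier SGLT2, had -4.61, -3.97, -4.51 and -3.18 on the EV arrays and -4.17, -4.43 and -4.00 on the HOTAIR arrays. Its EV arrays spanned the HOTAIR arrays, and the difference of -0.13 (SE 0.34) became 0.16 without EV 4, the highest array.

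The tested carriers of organic ions and bicarbonate had signal on all arrays and differences of at most 0.30 in size. SLC22A5, the carnitine transporter OCTN2, had 0.74, 1.22, 0.73 and 0.91 on the EV arrays and 0.34, 0.55 and 0.91 on the HOTAIR arrays. Its difference of -0.30 (SE 0.18, adjusted p = 0.946 by limma) was the lowest of the 16 genes, and the groups overlapped. SLC17A3, an apical urate and anion transporter, was between -0.77 and -0.26 on the EV arrays and between -0.76 and -0.65 on the HOTAIR arrays, a difference of -0.19 (SE 0.14). SLC4A4, the basolateral sodium-bicarbonate cotransporter, was between 0.41 and 0.70 on the EV arrays and between 0.34 and 0.54 on the HOTAIR arrays (difference -0.10, SE 0.11, 95% interval -0.36 to 0.17). SLC13A3, the sodium-dicarboxylate cotransporter NaDC3, had -1.10, -1.10, -1.07 and -1.11 on the EV arrays and -1.08, -0.97 and -1.01 on the HOTAIR arrays by its brighter probe. Its groups overlapped at HOTAIR 1, and the difference was 0.07 (95% interval -0.14 to 0.29), with -0.02 by its other probe.

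Some proximal genes were at the edge of detection and were not tested. SLC17A1, a urate and anion transporter related to SLC17A3, had -5.09, -5.48, -4.75 and -5.04 on the EV arrays, 2 of which had signal, and -5.80, -5.49 and -6.06 on the HOTAIR arrays, none of which had. Every HOTAIR array lay below every EV array, by 0.01 at the nearest, and no fold is given because most of these values had no signal. The water channel AQP1 had -5.63, -6.53, -5.43 and -6.24 on the EV arrays and -5.09, -5.16 and -5.21 on the HOTAIR arrays by A_23_P372834, which had signal on 1 HOTAIR array only. No fold is given for it either. Its other probe, A_33_P3253723, did not separate the groups. The urate transporter SLC2A9 had signal on 1 HOTAIR array, and its groups, between -7.03 and -6.45 and between -6.57 and -5.91, overlapped. Of the 45 untested probes of the set, 4 separated the groups (SLC17A1, SLC2A2, A_23_P372834 of AQP1 and A_23_P216712 of TRPM6). Those of SLC2A2 and TRPM6 had no signal on any array. Of all probes without a filter, 5.74% separated the groups. That share includes the tested probes, of which 7.7% did, so the share of untested probes alone is lower.

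**Figure D3:**
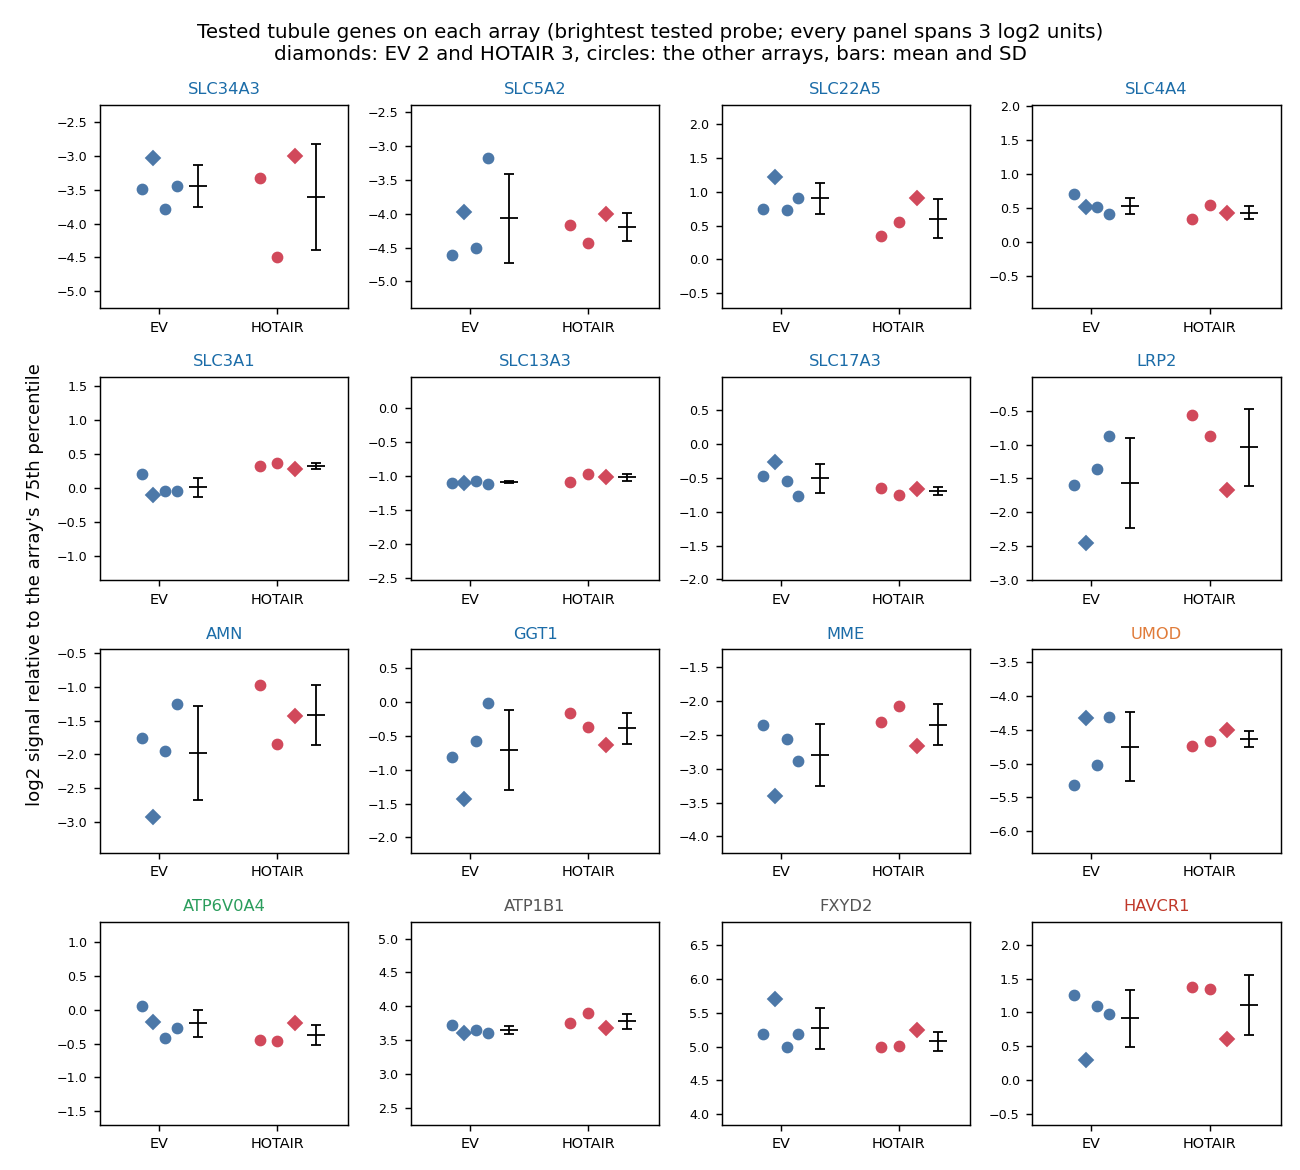
Log2 signal after subtraction of the 75th percentile (y axis) of the 16 tested genes on the EV (blue) and HOTAIR (red) arrays, by the brightest tested probe, with the mean and SD as black bars. Diamonds mark EV 2 and HOTAIR 3, of which EV 2 is the lowest EV array for SLC3A1, LRP2, AMN, GGT1, MME, ATP1B1 and HAVCR1, and the groups are separate for SLC3A1 alone.

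The later segments gave 2 tested genes. UMOD had -5.32, -4.33, -5.02 and -4.31 on the EV arrays and -4.74, -4.66 and -4.51 on the HOTAIR arrays. The HOTAIR arrays lay within the range of the EV arrays, and the difference of 0.11 (SE 0.26) was -0.06 with quantile normalization and -0.08 without EV 1. ATP6V0A4, mutated in a form of distal renal tubular acidosis, had 0.06, -0.18, -0.42 and -0.27 on the EV arrays and -0.45, -0.46 and -0.20 on the HOTAIR arrays, a difference of -0.17 (SE 0.14, 95% interval -0.50 to 0.17). Its groups overlapped as well.

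The sodium pump subunits had signal on all arrays. ATP1B1, the beta subunit that carries the pump to the membrane, had 3.73, 3.60, 3.65 and 3.61 on the EV arrays and 3.76, 3.90 and 3.68 on the HOTAIR arrays. HOTAIR 3 fell among the EV arrays, and the difference was 0.13 (SE 0.10, 95% interval -0.11 to 0.37). FXYD2, the gamma subunit that tunes the pump in the kidney, had 5.18, 5.70, 5.00 and 5.18 on the EV arrays and 4.99, 5.01 and 5.25 on the HOTAIR arrays by A_23_P161769. Here EV 2 and HOTAIR 3 were the highest arrays of their groups. The difference of -0.18 (SE 0.18, 95% interval -0.60 to 0.24) was -0.04 without EV 2 and -0.27 without HOTAIR 3. By A_33_P3228445, nearer the 5′ end, EV 2 (-0.28) and HOTAIR 3 (-0.47) were the lowest arrays of their groups, the others lay between 0.10 and 0.45, and the difference was -0.02 (SE 0.26).

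Of the injury markers, HAVCR1 was tested and not called. HAVCR1 encodes KIM-1, which appears on injured proximal tubules and on many renal cell carcinomas. Its probe had 1.26, 0.30, 1.10 and 0.97 on the EV arrays and 1.38, 1.34 and 0.60 on the HOTAIR arrays. EV 2 and HOTAIR 3 were the lowest arrays. The difference of 0.20 (SE 0.28, adjusted p = 0.993 by limma) was 0.00 without EV 2 and 0.45 without HOTAIR 3. The array annotation places this probe at chr19:24345035-24345094 (minus strand) and lists the pseudogene HAVCR1P1 among its transcripts, so its signal may not come from HAVCR1 alone. LCN2, which encodes the injury protein NGAL, lay between -5.93 and -4.92 on the EV arrays and between -6.41 and -5.01 on the HOTAIR arrays and was not tested.

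On the arrays that stood apart, the deviations of 4 tubule genes varied with the position of the probe. In each of the 4 genes with tested probes at different positions along the gene (SLC3A1, MME, FXYD2 and SLC13A3), EV 2 lay lower against the other EV arrays at the probe nearer the 5′ end than at the one nearer the 3′ end, and HOTAIR 3 did the same against the other HOTAIR arrays. For MME, EV 2 was -0.82 from the mean of the other EV arrays at the 5′ probe and -0.31 at the 3′ probe. HOTAIR 3 was -0.48 and 0.53 from its own. The middle MME probe, at -0.02 on each of these arrays, did not fall between its neighbours on EV 2. For FXYD2 the values were -0.55 and 0.58 on EV 2 and -0.88 and 0.25 on HOTAIR 3, but its probes are annotated to different transcripts, whereas those of the other 3 genes share 1. SLC13A3 moved least, with -0.09 and -0.01 on EV 2. In the other gene lists given below, HOTAIR 3 lay higher at the 5′ probe for WNK4 (0.55 and -0.08), CNNM2 and SYNPO. It lay lower there for CLCN5, NEDD4L and SLC8A1, and EV 2 lay lower there for all of these genes. In LRP2, AMN, GGT1 and HAVCR1, EV 2 differed by -1.27 to -0.81 from the mean of the other EV arrays, and the part of these arrays in the differences was measured by leaving them out. Without both EV 2 and HOTAIR 3 the differences were 0.56 for LRP2, 0.25 for AMN, 0.20 for GGT1, 0.25 for HAVCR1, 0.41 for MME and 0.31 for SLC3A1, and 0 of the 16 genes passed the adjusted threshold.

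**Figure D4:**
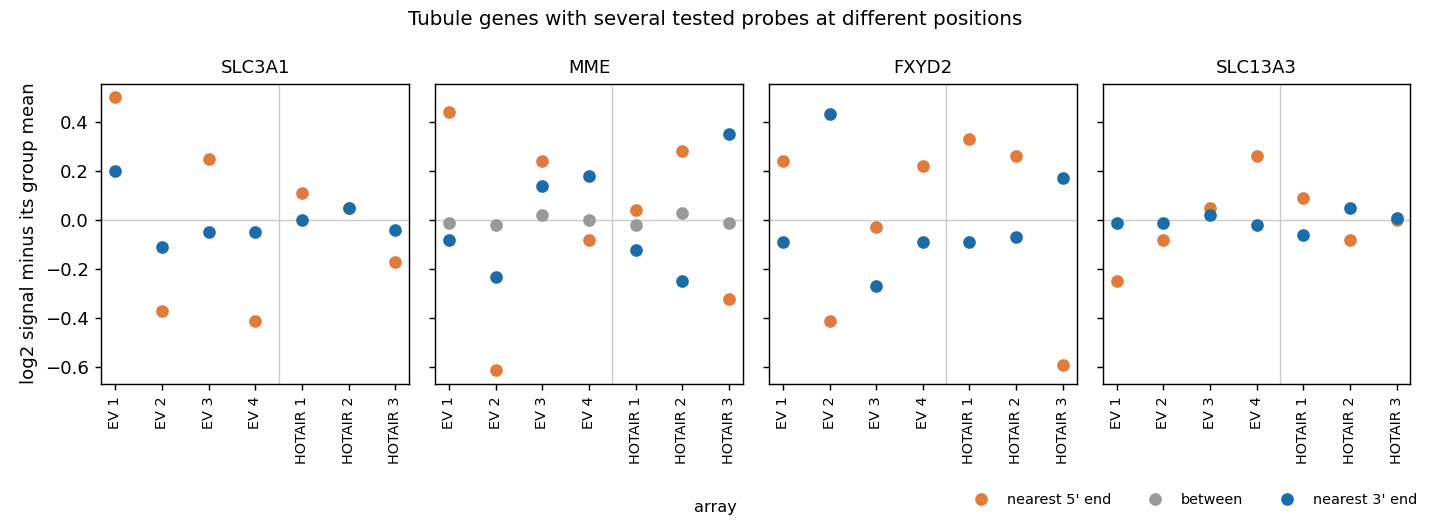
Log2 signal of each tested probe minus its group mean (y axis) on each array (x axis) for the 4 genes with tested probes at different positions, with the probe nearest the 5′ end in orange, that nearest the 3′ end in blue and the middle probe of MME in grey. On EV 2 and HOTAIR 3 the orange point lies below the blue one for each gene (for SLC13A3 on HOTAIR 3 they are -0.01 and 0.02 from the other arrays), and the middle MME probe stays near 0 on all arrays.

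Other genes of tubule transport were read from a list of 63 partners and regulators, of which 34 had signal on all arrays, 14 on none and 36 were tested. Of these 36, 0 passed the adjusted threshold (background 0.18%). An unadjusted p under 0.05 was found for 6, 3 higher and 3 lower (background 6.11%), and 8 separated the groups, 3 higher and 5 lower (background 8.05%). The median difference was -0.04.

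The largest differences of this list were those of CA12, SLC1A1 and KL. CA12, a membrane carbonic anhydrase, had -1.67, -3.02, -1.80 and -2.09 on the EV arrays and -0.98, -0.88 and -1.30 on the HOTAIR arrays. Its difference of 1.09 (SE 0.32, adjusted p = 0.532 by limma) was 0.80 without EV 2 and 1.25 without EV 1. SLC1A1, the glutamate and cysteine carrier EAAT3 of the proximal tubule, had -0.06, -0.21, -0.24 and -0.29 on the EV arrays and -1.27, -1.12 and -0.75 on the HOTAIR arrays, with a difference of -0.85 (SE 0.15, adjusted p = 0.12). KL, which encodes Klotho, the coreceptor for FGF23 in phosphate and calcium handling, had -2.86, -3.02, -3.05 and -3.20 on the EV arrays and -3.98, -3.81 and -3.83 on the HOTAIR arrays, with a difference of -0.84 (SE 0.12, adjusted p = 0.0678). For each of the 3 genes the groups did not overlap. In the same order, limma gave adjusted p-values of 0.0345, 0.00567 and 0.00557 with array weights and of 0.898, 0.588 and 0.485 with the replicate block. Of all 20419 probes, array weights called 324 and the replicate block 0, where the comparison without either called 34. With normexp background correction the differences were 0.68 (adjusted p = 0.614), -0.70 (0.158) and -0.37 (0.359), so that of KL was the most affected.

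Partners of the genes above are given next, chosen after their values were seen. PDZK1, a scaffold of brush-border carriers, lay between -1.69 and -1.32 on the EV arrays and between -2.15 and -2.04 on the HOTAIR arrays, with a difference of -0.52 (SE 0.12, adjusted p = 0.324 by limma). PTH1R, the parathyroid hormone receptor, lay between -4.71 and -4.51 on the EV arrays and between -4.14 and -3.62 on the HOTAIR arrays, with a difference of 0.71 (SE 0.14, adjusted p = 0.185) that was 0.21 (adjusted p = 0.903) with normexp background correction. SLC47A2, a proton-coupled exporter of organic cations, lay between -3.02 and -2.65 on the EV arrays and between -2.43 and -2.18 on the HOTAIR arrays, with a difference of 0.55 (SE 0.13, adjusted p = 0.327) that was 0.28 with normexp background correction. The groups did not overlap for any of these genes.

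Markers of the state of the epithelium were read in the same way. Of 10 genes of tubule injury and repair 7 were tested and 0 called, with a median difference of 0.06, and of 10 genes of renal epithelial identity 8 were tested and 0 called, with a median of -0.17. In the latter list KRT19, EPCAM and CDH16 lay lower on every HOTAIR array than on any EV array (3 of 8). Over all tested gene names 603 of 16664 lay lower in this way, and 8.05% separated in either direction. The differences were -0.41 for KRT19 (SE 0.13, adjusted p = 0.602 by limma) and -0.23 for EPCAM (SE 0.1, adjusted p = 0.881). CDH16, the kidney-specific cadherin of the tubule, had 1.02, 1.21, 0.69 and 1.13 on the EV arrays and 0.58, 0.55 and 0.07 on the HOTAIR arrays, a difference of -0.62 (SE 0.18, adjusted p = 0.531 by limma). HOTAIR 3 was the lowest array, and without it the difference was -0.45, while without EV 3 it was -0.72. With array weights it was -0.32 (adjusted p = 0.272) and without both EV 2 and HOTAIR 3 it was -0.39. The injury list held differences in both directions. SOX9, a transcription factor of tubule repair, had a difference of 1.00 (SE 0.40, adjusted p = 0.785), its groups overlapped, and the difference was 0.28 with normexp background correction. CCL2, a chemokine released by injured tubules, had -2.83, -2.21, -2.83 and -2.73 on the EV arrays and -3.31, -3.44 and -3.14 on the HOTAIR arrays, lower on every HOTAIR array, with a difference of -0.65 (SE 0.18, unadjusted p = 0.0074, adjusted p = 0.476 by limma) that was -0.32 with normexp background correction. These 5 genes were picked out once their values were known. The markers of podocytes, endothelium, immune cells and fibroblasts gave 6 tested genes and 0 calls, with differences from -0.02 (PODXL) to 0.28 (SYNPO).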

How the data were processed

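Total RNA of 7 ACHN samples was labelled with 1 dye and hybridised to Agilent SurePrint G3 Human GE 8x60K arrays. The authors deposited Feature Extraction output (version 10.7.3.1, per the submitters' processing notes), whose processed intensities are background-subtracted without scaling between arrays, and a table that repeats them. From the log2 of these intensities the array's 75th percentile over 58717 non-control spots was subtracted. Outlier spots (408 to 600 per array) were left out, and spots of a probe averaged. A probe was tested where all arrays of a group were well above background, by limma (version 3.58.1 in R 4.3.3, with lmFit and eBayes). The p-values were adjusted by Benjamini-Hochberg over 20419 probes at 0.05, and counts over 16664 gene names carry these values over. Only the mean over the probes of a gene was adjusted over gene names. A gene was represented by its brightest tested probe. Probe positions are on hg19, and names were checked against RefSeq (GRCh38.p14), where 50 of 50 genes and the transcripts of 65 of 67 probes matched. The probes without a match were those of GGT1. The number of arrays limits the precision.

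The genes were grouped by segment from textbook knowledge. The members, lists and alternatives were chosen with earlier results of these data known. All tested genes of the set are given. Of other lists with over 10 genes, those called or the 3 largest differences are named, and further genes only with the remark that their values were known. The rank product named in the methods was not run. The comparison was tested on simulated data.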

Additional observations from a re-analysis of the deposited data

Results flagged for a closer look

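On A_23_P154986 of GGT1, EV 2 was far below the rest of its group, with -2.05 against -0.99, -1.11 and -1.05, a gap of 0.885 of the range of the group. Of 22 groups of EV values tested for such a gap 1 passed, where 1.1 would be due to chance if the groups were independent. They are not, since all of them come from the same EV arrays. EV 2 was also the lowest EV array on the other GGT1 probe, with -1.44.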

How the results depend on the processing

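The number of called tubule genes was 0 under every alternative run. Of 16 differences, those of UMOD (-0.06 with quantile normalization) and SLC5A2 (0.16 with the replicate block and 0.05 with array weights) changed sign. With arrays left out in turn, those of UMOD (-0.08 to 0.26), SLC5A2 (-0.31 to 0.16) and SLC34A3 (-0.47 to 0.27) did so. That of HAVCR1 (0.00 to 0.45) came to 0.00 without EV 2. The cause was not tested. Over all 20419 probes, 34 were called, 12 with normexp background correction, 14 with no filter, 22 with the filter on all arrays, 20 with trend and robust moderation, 324 with array weights, 0 with the replicate block, 0 with the Mann-Whitney U test, whose smallest exact p of 0.0571 allows no call, and from 9 (without EV 1) to 30 (without EV 2) with an array left out. At an unadjusted p under 0.05 the number was 1194 in the comparison as reported. Of 57 tested genes of the other lists, 6 were called with array weights (KL, SLC1A1, CA12, PDZK1, SLC47A2 and CCL2) and 0 in the comparison as reported. The HOTAIR probe lost its call with the replicate block (3.59, adjusted p = 0.0772 by limma) and, as it must, with the Mann-Whitney U test (3.71, adjusted p = 0.742, exact). Genes with signal on all arrays numbered 24 with the lenient call and 15 to 16 with an array left out. Whether sample numbers pair the arrays is not given in the sources used here. The deviations of same-numbered arrays from their group means correlated at 0.386, -0.368 and -0.406. These correlations cannot decide it, since deviations from a shared group mean depend on each other. Those of EV 2 also had the largest SD (0.476). The result with the replicate block therefore holds only if same-numbered arrays belong together, which is not known. Probes near background, which are most of the set, give no measured difference.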
